A study of Mus musculus with 9 samples.

Results

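A set of 9 genes of the transforming growth factor beta (TGF-beta) pathway was followed in bulk RNA from mouse melanoma allografts: the ligands Tgfb1, Tgfb2 and Tgfb3, the latency protein Ltbp1, the receptors Tgfbr1, Tgfbr2 and Tgfbr3, the signal transducer Smad3 and the inhibitory Smad7. They were chosen by symbol and make up 9 of the 22195 genes with a summed read estimate. All 9 passed the filter on low counts, which left 12980 genes for testing. The tumors were grown from YUMMER1.7 cells, a mouse melanoma line that was irradiated with ultraviolet light to make it immunogenic, placed under the skin of immunocompetent C57BL/6J mice. Treatment started once tumors had reached a small set size, with an isotype control (IgG, the control group), an antibody to B7-H3 (an immune checkpoint ligand of the B7 family) or an antibody to PD1 (an inhibitory receptor of T cells). Each group had 3 libraries of ribosome-depleted total RNA (replicates 1 to 3), all from whole skin tumor and all from the same line and strain. The design text also names an arm given both antibodies, which was not analysed here. Whether the libraries of a group came from different mice is not in the labels, and the tests therefore weigh differences only against the spread among libraries, which may be technical.

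TGF-beta is secreted as a latent complex, in which the ligand stays bound to its own propeptide and, through it, to a latent TGF-beta binding protein that anchors the complex in the extracellular matrix. Integrins or proteases release the ligand, which joins the type II receptor to the type I receptor. The activated type I receptor phosphorylates SMAD2 and SMAD3, which enter the nucleus and bind DNA with SMAD4. The gene of the inhibitory SMAD7 is itself a target of the pathway and its product acts back on the type I receptor. In melanoma and other solid tumors the pathway is known for its effects on fibroblasts, vessels and T cells.

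No member passed the test in any comparison of the 3 groups (edgeR quasi-likelihood test, Benjamini-Hochberg adjustment over 12980 genes, threshold 0.05). The members that stood furthest apart before adjustment were Smad7, lower in anti-PD1 than in IgG tumors, Tgfb3, higher in anti-PD1 than in IgG tumors, and Tgfb2, lower in anti-B7-H3 than in anti-PD1 tumors. Each of these 3 differences had groups that did not overlap, and none held after adjustment. Groups were also apart for 23.0% of all genes in anti-PD1 against IgG and for 15.5% in anti-B7-H3 against anti-PD1. Levels are given as CPM (read counts over the library size, scaled by TMM, the trimmed mean of M values, a normalization that assumes that most genes do not differ), or as RPKM (the same per kilobase of coding length) where genes are compared with one another. Log2 fold changes carry the standard error (SE) of the fit, and 95% intervals are not adjusted for the number of genes.

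The IgG libraries stood apart from all others in composition. Total estimated reads were 13624172 to 27288766 in IgG, 10105153 to 15447583 in anti-B7-H3 and 8627930 to 11256181 in anti-PD1 libraries. A set of 12 genes that share satellite-like sequence took 87.0 to 92.0% of the reads in IgG, 5.24 to 28.2% in anti-B7-H3 and 14.6 to 38.2% in anti-PD1 libraries, which left 1252540 to 3546706, 7239044 to 14408350 and 5326276 to 9583684 reads for other genes. Olfactory and vomeronasal receptor genes, which tumor tissue is not known to use, were counted at 749 to 4772, 39.7 to 196 and 77.0 to 275 CPM of those remaining reads, highest in IgG replicate 3. Their part in the results against IgG was examined only through a covariate and a subtraction. Since this composition runs with the IgG label, it and the control treatment cannot be told apart. Keratinocyte markers, 9 genes, also separated IgG from all other libraries, at a sum of 15.4 to 41.4 CPM against 1.34 to 3.20 CPM, and their part in the differences from IgG was not tested. Markers of muscle also varied: 8 skeletal muscle genes summed to 24.8 to 50.9 CPM in IgG, 1.14 to 1542 CPM in anti-B7-H3 and 64.0 to 1063 CPM in anti-PD1 libraries, highest in replicate 3 of anti-B7-H3 and replicate 2 of anti-PD1. Melanocyte markers were low throughout, with a sum over 8 genes of 4.58 to 21.1 CPM and 0 to 5 of the 8 at 0 in a library, so the labelled melanoma origin is not visible in pigment cell genes. In bulk tissue, fewer cells of a type and less RNA per cell cannot be told apart.

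Compared per length, the 9 genes spanned more than a 10-fold range of levels. Over the 9 libraries the mean RPKM (range) was 86.3 (61.2 to 115) for Ltbp1, 39.45 (31.9 to 49.8) for Tgfbr2 and 28.95 (17.9 to 38.2) for Tgfb3. Tgfbr3 followed at 19.6 (10.9 to 23.8), Smad3 at 14.1 (11.35 to 18.9), Tgfbr1 at 13.8 (10.1 to 17.4) and Tgfb1 at 13.6 (10.7 to 17.2). Smad7 at 10.2 (5.56 to 13.7) and Tgfb2 at 4.78 (1.56 to 8.81) were lowest. The matrix-binding latency protein was thus the most abundant transcript of the set, and Tgfb3 the most abundant ligand. Ltbp1 was above Tgfbr2 in 9 of 9 libraries, by a log2 ratio of 1.12 ± 0.30 (SD, n = 9). Tgfbr2 was above Tgfb3 in 8 of 9 libraries (0.48 ± 0.38), and Tgfb3 above Tgfbr3 in 7 of 9 (0.56 ± 0.63). A further 3 steps of the order were no larger than their spread over libraries: Tgfbr3 over Smad3 (0.45 ± 0.48), Smad3 over Tgfbr1 (0.04 ± 0.29) and Tgfbr1 over Tgfb1 (0.02 ± 0.46), and the step from Tgfb3 to Tgfbr3 was likewise within its SD. Tgfb1 was above Smad7 in 8 of 9 libraries (0.44 ± 0.36), and Smad7 above Tgfb2 in 8 of 9 (1.19 ± 0.86).

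**Figure D1:**
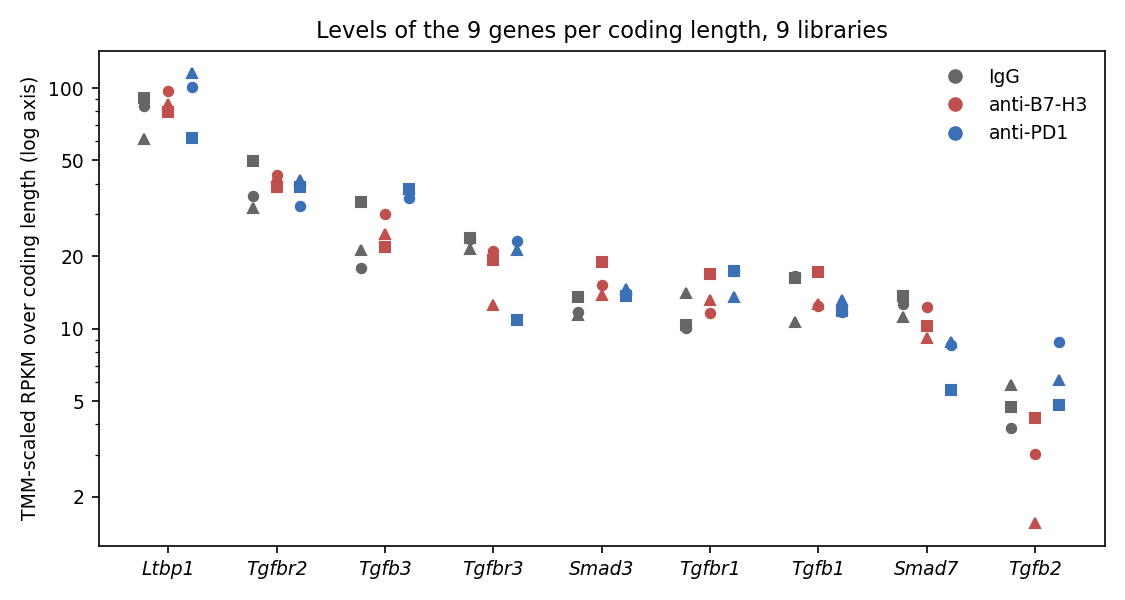
RPKM of the 9 genes in each of the 9 libraries, on a log axis, ordered by mean level; each point is 1 library, coloured by group, with circle, square and triangle for replicates 1, 2 and 3. Ltbp1, at 61.2 to 115 RPKM, lies above every other gene, and Tgfb2, at 1.56 to 8.81 RPKM, is lowest on average.

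Tgfb3 (chromosome 12, 86056745 to 86079041, minus strand, GRCm38) encodes the isoform known for its role in palate closure and wound repair. It was measured at 22.2, 41.5 and 26.2 CPM in IgG, 37.1, 27.2 and 30.7 CPM in anti-B7-H3 and 43.3, 47.3 and 47.3 CPM in anti-PD1 libraries. The anti-PD1 libraries lay above all others, with IgG replicate 2 closest to them. Group means were 29.96 ± 10.2, 31.7 ± 5.03 and 45.96 ± 2.35 CPM (SD, n = 3 each). The log2 fold change of anti-PD1 against IgG was 0.60 ± 0.23 (SE, 95% interval 0.09 to 1.11, edgeR adjusted p = 0.207), a fold of 1.52. Without IgG replicate 2 it was 0.95 with an edgeR adjusted p of 0.0433, so the call depends on that library. In that fit 438 genes passed, against 53 with all libraries, so the call is not particular to Tgfb3. With the share of olfactory and vomeronasal receptor reads as a covariate, the Tgfb3 value was 0.38 ± 0.41 (edgeR adjusted p = 0.933). Every IgG library had a higher share than any other library, so this fit can hardly separate the share from the IgG label. Anti-B7-H3 against IgG gave 0.06 ± 0.23 (interval -0.45 to 0.57) with overlapping groups. Anti-B7-H3 lay below anti-PD1 in every library, at -0.54 ± 0.23 (edgeR adjusted p = 0.749).

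Tgfb2 (chromosome 1, 186622792 to 186705989, minus strand) is the ligand that needs the type III receptor for high-affinity binding. Its RefSeq promoter is printed because Tgfb2 had the largest log2 difference of any member. The stretch covers the 250 bases before the RefSeq start, at chr1:186705990-186706239 on the minus strand of GRCm38.p6, with capitals for CAGAC or its reverse complement GTCTG, the short SMAD binding element.
Tgfb2 promoter: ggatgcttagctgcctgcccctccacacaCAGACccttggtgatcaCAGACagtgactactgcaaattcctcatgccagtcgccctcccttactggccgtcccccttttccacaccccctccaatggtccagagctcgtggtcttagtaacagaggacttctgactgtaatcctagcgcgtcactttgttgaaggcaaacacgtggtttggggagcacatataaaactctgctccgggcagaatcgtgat
It holds 2 matches, 221 and 204 bases before the start. Over 32851 such windows of 250 bases, 42.2% hold at least 1 match on either strand, so a match is a description of the letters and not a site.

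Tgfb2 was the sparsest member, with 16 to 53 reads in IgG, 74 to 192 in anti-B7-H3 and 141 to 196 in anti-PD1 libraries. It stood at 4.86, 5.92 and 7.35 CPM in IgG, 3.78, 5.33 and 1.95 CPM in anti-B7-H3 and 11.1, 6.08 and 7.69 CPM in anti-PD1 libraries. Every anti-B7-H3 library was below every anti-PD1 library, while IgG overlapped both. Anti-B7-H3 replicate 3, lowest for Tgfb2, was also the library highest for muscle markers. Anti-PD1 replicate 2, next highest for muscle markers at 1063 CPM, had 6.08 CPM of Tgfb2. The part of muscle in the Tgfb2 level was not tested. The log2 fold change of anti-B7-H3 against anti-PD1 was -1.16 ± 0.35 (SE, 95% interval -1.92 to -0.40, edgeR adjusted p = 0.749). Leaving out the 2 libraries highest for muscle gave -1.02. Against IgG the values were -0.68 ± 0.38 for anti-B7-H3 (edgeR adjusted p = 0.571) and 0.48 ± 0.38 for anti-PD1 (adjusted p = 0.519), both with overlapping groups. The first was -0.35 without anti-B7-H3 replicate 3 and -1.05 without anti-B7-H3 replicate 2, and the second 0.23 without anti-PD1 replicate 1. IgG replicate 3 had 3.25 times as many Tgfb2 reads as its receptor-gene background predicts for a transcript of that length, against at least 63.4 times for any member in any anti-B7-H3 or anti-PD1 library.

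Tgfb1 (chromosome 7, 25687002 to 25705077, plus strand) encodes the isoform most widely made by leukocytes and platelets. Its levels were 19.3, 18.9 and 12.4 CPM in IgG, 14.4, 20.0 and 14.8 CPM in anti-B7-H3 and 13.7, 13.8 and 15.3 CPM in anti-PD1 libraries. The groups overlapped in every comparison, with log2 fold changes of -0.07 ± 0.21 (95% interval -0.53 to 0.40) for anti-B7-H3 against IgG and -0.27 ± 0.21 (-0.74 to 0.19) for anti-PD1 against IgG. A difference of more than 0.74 on the log2 scale lay outside both intervals. Platelet markers, 7 genes of which 2 could be tested, summed to 6.03 to 17.7 CPM over the 9 libraries, and their part in the Tgfb1 level was not tested.

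**Figure D2:**
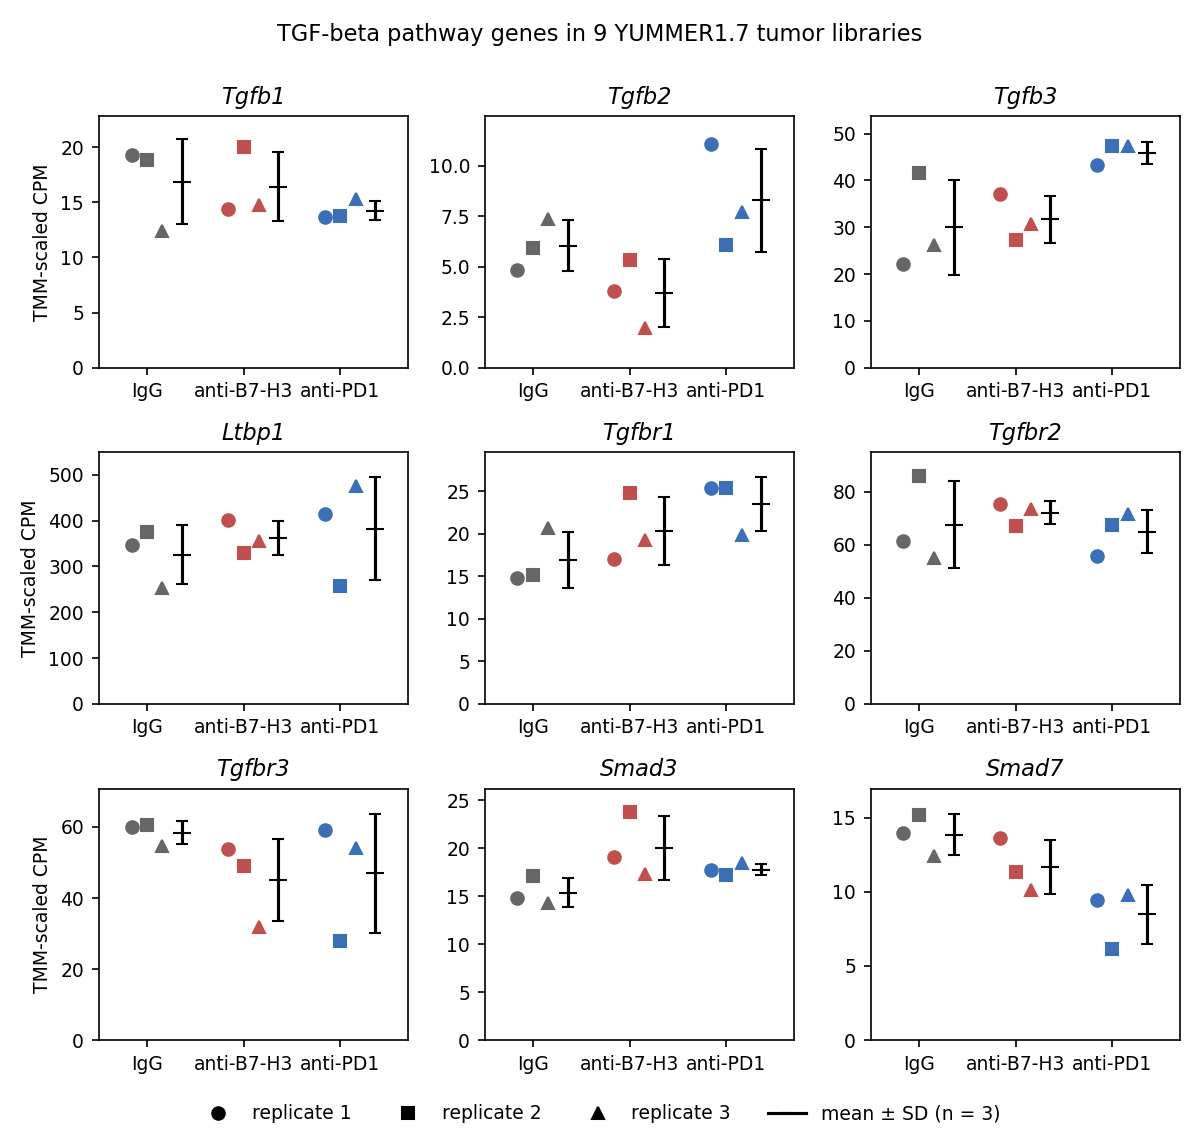
TMM-scaled CPM of each of the 9 genes by group; circle, square and triangle are replicates 1, 2 and 3, and the black bar is the mean ± SD (n = 3). The anti-PD1 points of Tgfb3 (43.3 to 47.3 CPM) and Smad7 (6.16 to 9.81 CPM) do not overlap the IgG points.

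Ltbp1 (chromosome 17, 75005568 to 75392512, plus strand) encodes the latent TGF-beta binding protein, which has a long and a short form made from separate start sites. It is shown with both RefSeq promoters because the 2 starts were used so unequally. Each stretch is the 250 bases before a RefSeq start on the plus strand of GRCm38.p6, chr17:75005279-75005528 for the upstream and chr17:75178531-75178780 for the downstream start, with CAGAC or GTCTG in capitals.
Ltbp1 upstream start: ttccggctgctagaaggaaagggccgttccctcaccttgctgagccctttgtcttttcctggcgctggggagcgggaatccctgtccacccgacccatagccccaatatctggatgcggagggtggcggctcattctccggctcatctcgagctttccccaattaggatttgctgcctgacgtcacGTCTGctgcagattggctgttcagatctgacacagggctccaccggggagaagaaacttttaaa
Ltbp1 downstream start: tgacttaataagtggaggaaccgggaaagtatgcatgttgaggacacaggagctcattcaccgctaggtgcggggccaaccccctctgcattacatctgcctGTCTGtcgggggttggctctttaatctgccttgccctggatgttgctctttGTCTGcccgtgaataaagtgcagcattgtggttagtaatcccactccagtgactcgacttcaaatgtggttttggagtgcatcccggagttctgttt
The upstream window holds 1 match, 64 bases before the start, and the downstream window 2, at 148 and 97 bases. Transcripts that begin at the downstream start took 97.32% of all Ltbp1 reads, nearly all in a pair of transcripts with listed lengths of 4185 (48.1%) and 4026 bases (49.0%). The upstream start took 4.40, 2.40 and 8.36% of Ltbp1 reads in IgG, 1.78, 3.14 and 2.92% in anti-B7-H3 and 2.97, 1.38 and 2.61% in anti-PD1 libraries. The means were 5.05 ± 3.03%, 2.61 ± 0.73% and 2.32 ± 0.834% (SD, n = 3 each), and the groups overlapped. The highest share was in IgG replicate 3, the shallowest library outside satellite sequence, and rests on 46.0 estimated reads. The assignment of reads to transcripts is the quantifier's estimate, since the forms share most of their sequence.

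Summed over its transcripts, Ltbp1 stood at 348, 376 and 253 CPM in IgG, 402, 329 and 355 CPM in anti-B7-H3 and 416, 257 and 476 CPM in anti-PD1 libraries. The 3 groups overlapped, and anti-PD1 had both the highest library and the second lowest. The log2 fold changes were 0.15 ± 0.26 for anti-B7-H3 and 0.23 ± 0.26 for anti-PD1 against IgG, with 95% intervals of -0.42 to 0.73 and -0.34 to 0.81. Between the antibodies the value was -0.08 ± 0.26. With 550 to 13801 reads per library, Ltbp1 was the member counted most deeply.

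Tgfbr1 (chromosome 4, 47353222 to 47414931, plus strand) encodes the type I receptor kinase that phosphorylates SMAD2 and SMAD3. Its CPM were 14.8, 15.2 and 20.7 in IgG, 17.1, 24.8 and 19.2 in anti-B7-H3 and 25.3, 25.4 and 19.9 in anti-PD1 libraries. IgG replicate 3 overlapped both antibody groups. The log2 fold change was 0.30 ± 0.21 for anti-B7-H3 (95% interval -0.17 to 0.77, edgeR adjusted p = 0.675) and 0.505 ± 0.21 for anti-PD1 (0.04 to 0.98, edgeR adjusted p = 0.240) against IgG.

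Tgfbr2 (chromosome 9, 116084293 to 116175360, minus strand) encodes the type II receptor, which binds the ligand and activates the type I receptor. Its levels were 61.6, 86.1 and 55.2 CPM in IgG, 75.5, 67.3 and 73.6 CPM in anti-B7-H3 and 55.9, 67.3 and 71.7 CPM in anti-PD1 libraries. It had the smallest group differences of the receptors, 0.08 ± 0.20 and -0.07 ± 0.20 on the log2 scale against IgG for anti-B7-H3 and anti-PD1, with 95% intervals of -0.35 to 0.52 and -0.50 to 0.37. A pair of coding transcripts shared the gene's reads, 65.7% to the one listed at 1704 bases and 34.3% to the one listed at 1779 bases, which ranged from 24.1 to 41.7% over the libraries.

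Tgfbr3 (chromosome 5, 107106570 to 107289629, minus strand) encodes betaglycan, the co-receptor that presents TGF-beta 2. It was measured at 59.9, 60.6 and 54.7 CPM in IgG, 53.8, 49.1 and 31.9 CPM in anti-B7-H3 and 59.1, 27.8 and 54.0 CPM in anti-PD1 libraries. The lowest values were those of replicate 3 of anti-B7-H3 and replicate 2 of anti-PD1, the libraries with the highest summed muscle markers (1542 and 1063 CPM). The log2 fold change of anti-B7-H3 against IgG was -0.38 ± 0.28 (95% interval -1 to 0.24, edgeR adjusted p = 0.687) with groups that did not overlap, and that of anti-PD1 -0.32 ± 0.28 (-0.94 to 0.30, adjusted p = 0.572). Without these 2 libraries, a choice made after seeing the data, the values were -0.18 and -0.05. The same 2 libraries were also the highest for 10 macrophage markers (1003 and 1095 CPM, the others 240 to 688 CPM). In the IgG libraries the muscle markers summed to 26.6, 50.9 and 24.8 CPM, with 59.9, 60.6 and 54.7 CPM of Tgfbr3. Replicates 1 and 2 of anti-B7-H3 had 260 and 1.14 CPM of the markers with 53.8 and 49.1 CPM of Tgfbr3. Replicates 1 and 3 of anti-PD1 had 64.0 and 454 CPM of the markers with 59.1 and 54.0 CPM of Tgfbr3. The part of either tissue in the Tgfbr3 level was not tested.

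**Figure D3:**
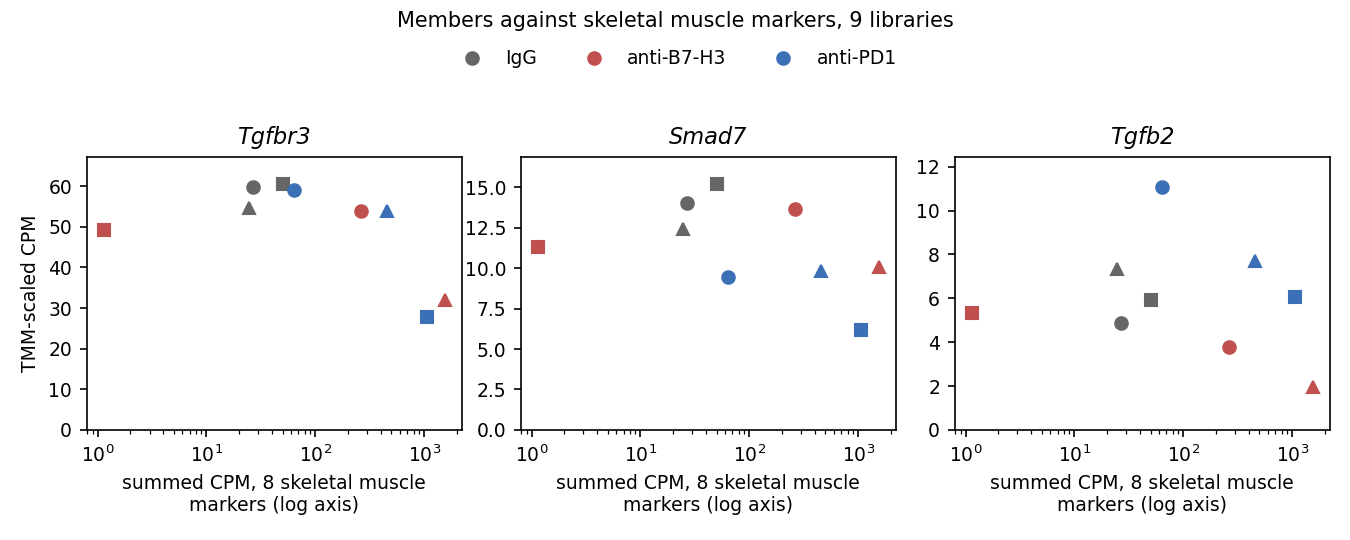
TMM-scaled CPM of Tgfbr3, Smad7 and Tgfb2 against the summed CPM of 8 skeletal muscle markers (log axis) in the 9 libraries; colours are groups, and circle, square and triangle are replicates 1, 2 and 3. The libraries at 1063 and 1542 CPM of muscle markers have the lowest Tgfbr3, 27.8 and 31.9 CPM.

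Smad7 (chromosome 18, 75367529 to 75395935, plus strand) encodes the inhibitory SMAD that is induced by the pathway and blocks the type I receptor. It stood at 14.0, 15.2 and 12.4 CPM in IgG, 13.7, 11.3 and 10.1 CPM in anti-B7-H3 and 9.47, 6.16 and 9.81 CPM in anti-PD1 libraries. All 3 anti-PD1 libraries were below all 6 others, and anti-B7-H3 overlapped IgG. Group means were 13.9 ± 1.39, 11.7 ± 1.80 and 8.48 ± 2.01 CPM (SD, n = 3 each). The log2 fold change of anti-PD1 against IgG was -0.73 ± 0.23 (SE, 95% interval -1.22 to -0.23, edgeR adjusted p = 0.137), and leaving out 1 library at a time gave -0.84 to -0.53. Without the 2 libraries highest for muscle it was -0.54. With the share of olfactory and vomeronasal receptor reads as a covariate it was -0.43 ± 0.40 (edgeR adjusted p = 0.918), and with that background subtracted -0.84 (adjusted p = 0.160). That share was higher in every IgG library than in any other, so the covariate fit can hardly separate it from the IgG label. Anti-B7-H3 against IgG was -0.26 ± 0.22 (adjusted p = 0.730), and anti-B7-H3 against anti-PD1 0.46 ± 0.21 (edgeR adjusted p = 0.749).

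Smad3 (chromosome 9, 63646767 to 63757994, minus strand) encodes the receptor-activated SMAD that binds DNA directly. Its levels were 14.8, 17.1 and 14.3 CPM in IgG, 19.0, 23.8 and 17.3 CPM in anti-B7-H3 and 17.7, 17.2 and 18.4 CPM in anti-PD1 libraries. Every antibody library was above every IgG library, in some cases by less than 1 CPM. The log2 fold change was 0.37 ± 0.18 for anti-B7-H3 (95% interval -0.03 to 0.77, edgeR adjusted p = 0.516) and 0.20 ± 0.18 for anti-PD1 (-0.20 to 0.60, adjusted p = 0.592) against IgG.

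In anti-B7-H3 against IgG, 0 of 9 members passed the test, where 79 of 12980 genes did (0.609%), 1 higher (0.00770%) and 78 lower (0.601%). At an unadjusted edgeR p under 0.05 there were 0 members against 10.6% of all genes (3.59% higher, 6.96% lower), and by DESeq2 and limma-voom no member passed either. Groups did not overlap for 2 members, Smad3 (higher) and Tgfbr3 (lower), where 16.3% of all genes had groups apart (7.73% higher, 8.56% lower). The median log2 fold change was 0.06 over the members and 0.03 over all genes.

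In anti-PD1 against IgG, which uses the same IgG libraries, 0 of 9 members passed, where 53 of 12980 genes did (0.408%), 1 higher (0.00770%) and 52 lower (0.401%). Before adjustment 3 members had an edgeR p under 0.05 (Tgfb3 and Tgfbr1 higher, Smad7 lower), where 18.5% of all genes did (7.68% higher, 10.9% lower). Groups did not overlap for 3 members, Tgfb3 and Smad3 (higher) and Smad7 (lower), where 23.0% of all genes had groups apart (11.1% higher, 11.9% lower). The members' median was 0.20 on the log2 scale, and that of all genes 0.01.

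Between the antibodies, 0 of 9 members and 0 of 12980 genes passed by edgeR (0.00%), and 24 genes, none of them a member, by DESeq2. Here 2 members, Tgfb2 and Tgfb3, both lower in anti-B7-H3, had an unadjusted edgeR p under 0.05, where 6.48% of all genes did (3.93% higher, 2.55% lower). Groups did not overlap for these 2 and for Smad7 (higher in anti-B7-H3), where 15.5% of all genes had groups apart (7.57% higher, 7.89% lower). This comparison uses no IgG library. In the test over the 3 groups together the lowest member values were those of Tgfb2 (edgeR adjusted p = 0.263), Smad7 (adjusted p = 0.274) and Tgfb3 (adjusted p = 0.330), and 1.22% of all genes passed.

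**Figure D4:**
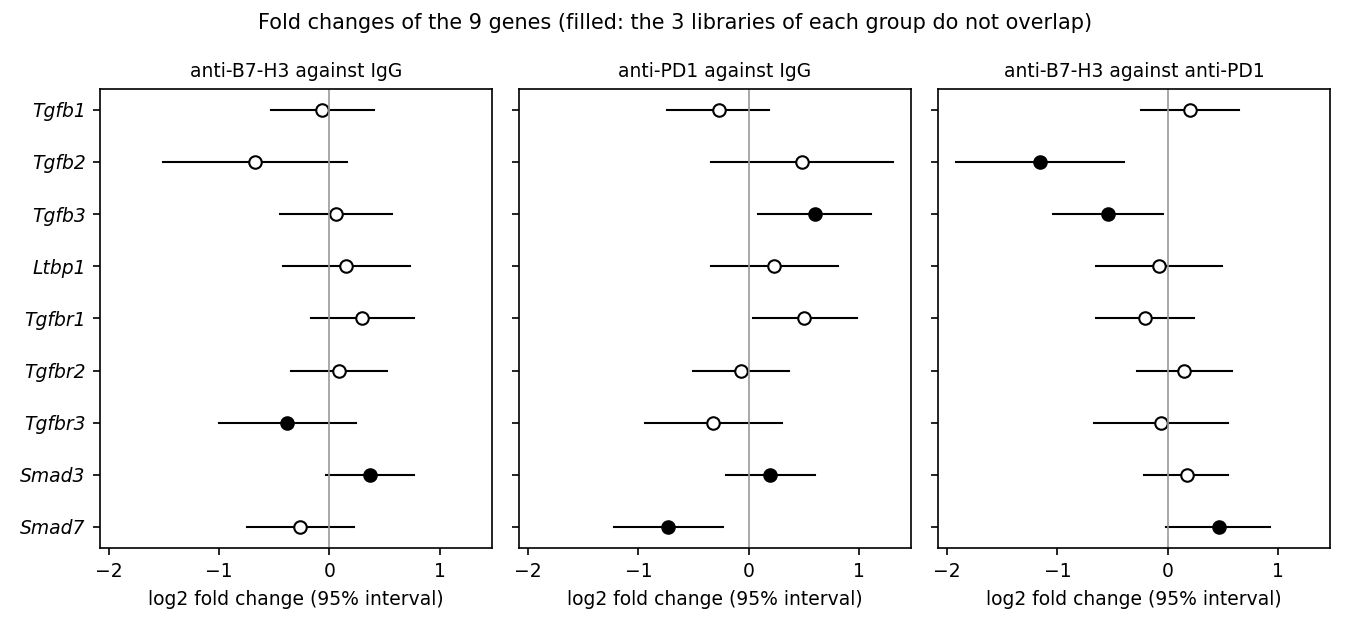
Log2 fold change of each of the 9 genes in the 3 comparisons; points are edgeR estimates, filled where the groups do not overlap, and bars are unadjusted 95% intervals. The interval lies off 0 for Tgfb3, Tgfbr1 and Smad7 in anti-PD1 against IgG and for Tgfb2 and Tgfb3 in anti-B7-H3 against anti-PD1, and no member passed after adjustment.

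The choice of scaling moves all genes together. When libraries were scaled by their total reads, satellite reads included, the median log2 fold change of all genes moved to 3.37 for anti-B7-H3 and 3.15 for anti-PD1 against IgG, and all 9 members passed as higher in both. Under that scaling 12462 genes were called higher and 74 lower for anti-B7-H3, and 12293 higher and 48 lower for anti-PD1, where TMM gave 1 higher and 78 lower, and 1 higher and 52 lower. Relative to those medians, every member that was below 0 under TMM was still below the median: Tgfb1 (3.27), Tgfb2 (2.65), Tgfbr3 (2.94) and Smad7 (3.05) for anti-B7-H3, and Tgfb1 (2.87), Tgfbr2 (3.04), Tgfbr3 (2.80) and Smad7 (2.39) for anti-PD1. Tgfb3 in anti-PD1 tumors, at 3.67, was above the median. Tgfb3 (3.30) and Tgfbr2 (3.36) for anti-B7-H3 were above 0 under TMM but below the median of 3.37. Since this scaling moves all genes nearly alike, these positions were largely fixed in advance and give no separate support for a direction.

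Of 77 other genes of the pathway, in lists of latency and activation, receptors, SMADs, TGF-beta targets and BMP targets, 73 were tested and 0 passed in any pairwise comparison. Over all genes, 0.609% passed in anti-B7-H3 against IgG, 0.408% in anti-PD1 against IgG and 0.00% between the antibodies. A count of 0 among these genes, or in any list below, is near those shares. The lowest adjusted p among them was 0.0588. At an unadjusted edgeR p under 0.05 there were 5 of these genes (6.85%) in anti-B7-H3 against IgG, where 10.6% of all genes did so, 9 (12.3%) in anti-PD1 against IgG, where 18.5% did, and 7 (9.59%) in anti-B7-H3 against anti-PD1, where 6.48% did. The genes named below are the 4 of each list with the smallest p over the 3 groups, so their being apart is how they were picked.

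Among genes that hold or release latent TGF-beta, 0 of 16 tested passed, with medians of 0.14, 0.06 and 0.10 on the log2 scale in the 3 comparisons in that order. Thbs1, a matrix protein that activates latent TGF-beta, stood at 25.1, 33.7 and 27.6 CPM in IgG, 38.5, 50.8 and 90.4 CPM in anti-B7-H3 and 44.4, 39.0 and 35.6 CPM in anti-PD1 libraries. Every antibody library was above every IgG library, with a log2 fold change of 1.05 ± 0.29 for anti-B7-H3 (edgeR adjusted p = 0.142). Itgb3, an integrin subunit, was lower in each anti-PD1 library than in any other library, at -0.72 ± 0.23 against IgG (adjusted p = 0.148). Ltbp2 had log2 fold changes of 0.54 and 0.04, and Nrros, which tethers latent TGF-beta on myeloid cells, 0.83 and 0.50, for anti-B7-H3 and anti-PD1 against IgG. Macrophage markers, 10 genes, summed to 240 to 590 CPM in IgG, 637 to 1003 CPM in anti-B7-H3 and 470 to 1095 CPM in anti-PD1 libraries, and their part in the Nrros values was not tested.

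Among other receptors of the superfamily, 0 of 11 tested passed, with medians of 0.05, 0.08 and -0.03. Bambi, a pseudoreceptor that lacks a kinase domain, had a log2 fold change of 1.05 ± 0.41 for anti-PD1 against IgG (edgeR adjusted p = 0.206) with groups apart. Bmpr1a, a BMP type I receptor, had 0.57 ± 0.21 in that comparison. Cd109, a TGF-beta co-receptor, had -0.42 ± 0.18 for anti-B7-H3 against anti-PD1, and Acvrl1, the type I receptor of endothelium, 0.65 ± 0.31.

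Among SMADs and their regulators, 0 of 21 tested passed, with medians of 0.03, 0.09 and -0.06. Smad6, the other inhibitory SMAD, stood at 5.06, 3.01 and 11.03 CPM in IgG, 2.51, 1.42 and 0.797 CPM in anti-B7-H3 and 1.97, 1.72 and 1.18 CPM in anti-PD1 libraries. All antibody libraries were below all IgG libraries, at -1.94 ± 0.54 (edgeR adjusted p = 0.148) and -1.88 ± 0.54 (adjusted p = 0.119) on the log2 scale. In the IgG libraries Smad6 had 5.97, 11.1 and 4.39 times the reads that the receptor-gene background predicts. The part of that background in the Smad6 difference was not tested. The corepressor gene Tgif2 had -0.90 ± 0.44 and -1.06 ± 0.45 against IgG for anti-B7-H3 and anti-PD1, its relative Tgif1 had 0.55 and 0.31, and Ski, a corepressor of SMAD complexes, -0.19 and -0.58.

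Among TGF-beta target genes, 0 of 25 tested passed, with medians of 0.11, -0.04 and 0.25. The target list includes the member Smad7 and shares some genes with the list of SMADs and their regulators. Postn, a matrix protein of activated fibroblasts, came closest to the threshold of all the pathway genes: 241, 305 and 278 CPM in IgG, 480, 353 and 353 CPM in anti-B7-H3 and 576, 899 and 559 CPM in anti-PD1 libraries. The 3 groups did not overlap one another, with log2 fold changes of 0.53 ± 0.25 for anti-B7-H3 (edgeR adjusted p = 0.501) and 1.30 ± 0.26 for anti-PD1 (adjusted p = 0.0588) against IgG. Acta2, smooth muscle actin, was higher in every antibody library than in any IgG library, at 0.91 ± 0.28 and 0.98 ± 0.28 (adjusted p = 0.201 and 0.118). Comp had only 4 to 14 reads per library and in 2 of the 3 IgG libraries was below the receptor-gene background. Of the 25 tested targets, 16 had a log2 fold change above 0 and 9 below for anti-B7-H3 against IgG. The counts were 11 above and 14 below for anti-PD1 against IgG, and 16 above and 9 below for anti-B7-H3 against anti-PD1. Medians over all genes were 0.029, 0.006 and 0.008 in these 3 comparisons. Fibroblast markers, 10 genes, summed to 2775 to 7757 CPM in IgG, 5402 to 8641 CPM in anti-B7-H3 and 4379 to 6247 CPM in anti-PD1 libraries. That list shares Col1a1, Col1a2 and Col3a1 with the target list, and the part of fibroblast content in the Postn and Acta2 values was not tested.

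The 6 BMP targets, of which 0 passed, had medians of -0.15, -0.38 and 0.00. Apart from Smad6 and Bambi above, Id1 had 0.29 and -0.165 and Id3 -0.50 and -0.59 against IgG for anti-B7-H3 and anti-PD1.

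**Figure D5:**
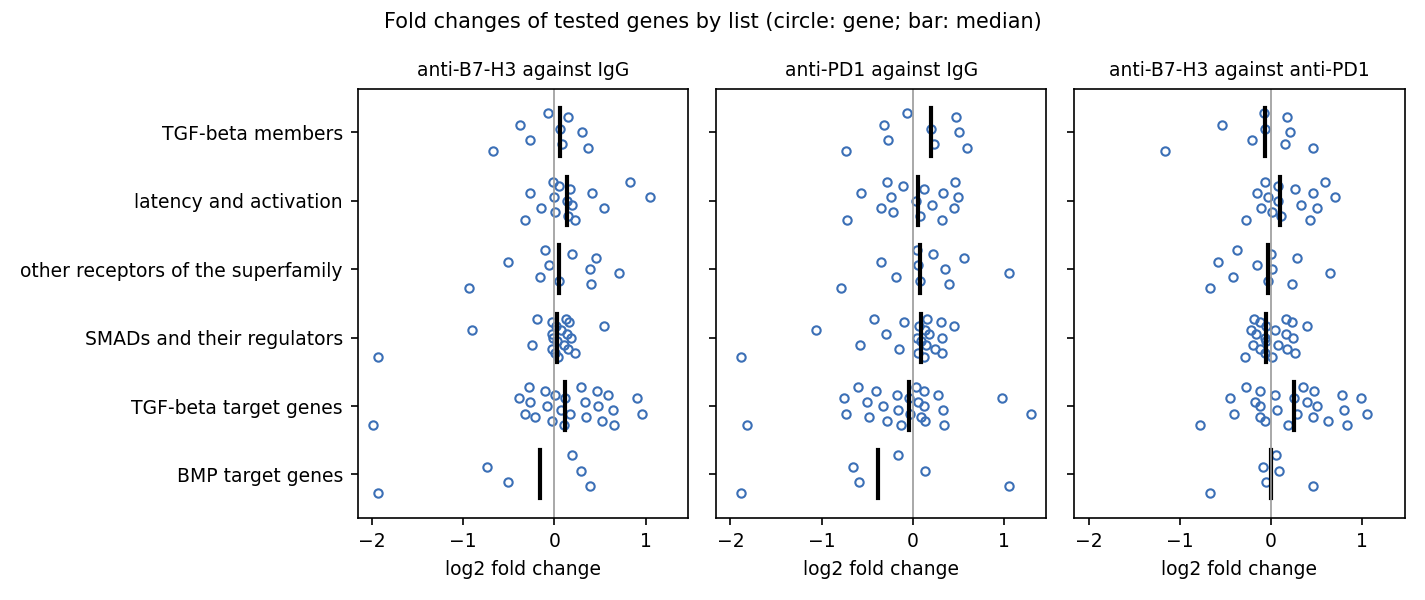
Log2 fold changes of the 9 members and of the tested genes of each pathway list in the 3 comparisons; each point is a gene and the bar is the list's median. The medians of the lists lie between -0.38 and 0.25, and no gene of these lists passed the test.

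The genes most like each member over the 9 libraries were taken by Pearson's r of log2 CPM among 6982 genes with a mean of at least 3 log2 CPM, 3 for each member. All points share their library's depth, scaling and composition, and r is given as a description. For the ligands they were Scd2, Gga1 and E4f1 for Tgfb1 (r = 0.911 to 0.875), Mpzl1, Ncl and Cdkn1b for Tgfb2 (0.972 to 0.954) and Ogdh, Etfa and Nln for Tgfb3 (0.964 to 0.912). Ltbp1 was most like Pcdh19, Actn1 and Notch2 (0.974 to 0.936). Tgfbr1 was most like Ddx50, Mrpl45 and Rnf139 (0.943 to 0.940), Tgfbr2 like Aen, Hps1 and Zdhhc16 (0.960 to 0.926) and Tgfbr3 like Ubap2, Pcgf2 and Zfp532 (0.987 to 0.983). Smad3 was most like Rfwd3, Psme3 and Tubgcp5 (0.943 to 0.889), and Smad7 like Pcdhgc5, Arhgap23 and Gse1 (0.979 to 0.972). No member was among the 3 genes most like another member. Among the members themselves the highest r was 0.76, between Tgfbr3 and Smad7, and the lowest -0.77, between Tgfbr1 and Smad7.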

How the data were processed

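Bulk RNA from 9 tumor samples was quantified by the authors, who deposited per transcript an estimated count of reads, TPM and a length, per the file headers. Which program made these estimates is not stated in the labels or headers. The build GRCm38 and FastQC 0.11.8 are from the submitters' processing notes. The deposited lengths of 94.1% of 57362 coding transcripts were within 3 bases of the coding length. Of 58083 listed transcripts, 57473 matched GENCODE M21; the other 610 held 0.0537 to 0.344% of reads. Expected counts were summed per gene, rounded and tested with edgeR 4.0.16 in R 4.3.3 (TMM, filterByExpr, robust quasi-likelihood, 1 fit over all 9 libraries, Benjamini-Hochberg over 12980 genes; 8661 genes with reads were not tested), which gave a biological coefficient of variation of 28.5%. The deposited TPM was not used for any test; RPKM was computed from reads and the listed lengths. Satellite-like genes were found by shared 15-base words (more than 30%) with the transcripts of Gm10719. Scripts were tested on simulated data. Within a group, the counts of no library were a copy of another's, and libraries differed by more than sampling noise (chi-square per gene of 32.2 to 234). Pairs were scaled by their reads in tested genes, satellite genes included, so unlike satellite shares also raise this value. It does not show that the libraries are separate animals or separate RNA.

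The members and gene lists were chosen with earlier results of these data known. Named genes are the 9 members, every other pathway gene past the threshold (none), the 4 genes of each list with the smallest p over the 3 groups, and the 3 genes most like each member by Pearson's r. Marker lists of T cells (10 genes, 8.82 to 22.2 CPM over all libraries) and endothelium (9 genes, median log2 fold changes -0.18 and -0.08 against IgG for anti-B7-H3 and anti-PD1) were read beside those in the report. Promoters are RefSeq's for GRCm38.p6, listed for 6 of the 9 genes. Alternatives were DESeq2 1.42.0, limma-voom (limma 3.58.1), other scalings and filters, receptor background as a covariate or subtracted, a replicate block and leaving out libraries.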

Additional observations from a re-analysis of the deposited data

How the results depend on the processing

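No member passed the test under DESeq2, limma-voom, DESeq2 size factors, either filter, the satellite genes left out, only the libraries compared, or either treatment of the receptor background. Scaling by library totals called all 9 members in both comparisons with IgG and 9 over the 3 groups, and turned to positive Tgfb1 (3.27), Tgfb2 (2.65), Tgfbr3 (2.94) and Smad7 (3.05) for anti-B7-H3 against IgG, Tgfb1 (2.87), Tgfbr2 (3.04), Tgfbr3 (2.80) and Smad7 (2.39) for anti-PD1 against IgG, and Ltbp1 (0.11), Tgfbr1 (0.014) and Tgfbr3 (0.14) between the antibodies. These totals include the satellite reads and move all genes alike, by medians of 3.37, 3.15 and 0.20, and each of these values lies below the median of its comparison. Values that changed sign elsewhere had, apart from those under the receptor covariate, small main values. They were, with no filter, Tgfb1 at 0.16 (anti-B7-H3 against IgG) and Tgfbr2 at 0.14 (anti-PD1 against IgG); with background subtracted, Tgfb3 at -0.084, Ltbp1 at -0.044 and Tgfbr2 at -0.09 (anti-B7-H3 against IgG); and without the 2 libraries highest for muscle, Tgfb1 at 0.007 (anti-B7-H3 against IgG). With the receptor share as covariate they were Tgfb2 at 0.032, Tgfb3 at -0.20, Tgfbr2 at -0.43, Tgfbr3 at 0.31 and Smad7 at 0.11 (anti-B7-H3 against IgG), Tgfbr3 at 0.22 and Smad3 at -0.001 (anti-PD1 against IgG), and Tgfbr3 at 0.09 between the antibodies. The covariate separated IgG from all other libraries. In anti-B7-H3 against IgG it took the SE of Tgfb2 from 0.38 to 0.80 and that of Tgfbr3 from 0.28 to 0.57. Signs in the comparisons with IgG are therefore poorly fixed in this fit, and the cause of the changes was not tested.

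Leaving out anti-B7-H3 replicate 2 or 3, or anti-PD1 replicate 1, moved Tgfb2 against IgG by over 1.5 times, to -1.05, -0.35 and 0.23. Other members moved by as much. For anti-B7-H3 against IgG, Tgfbr3 went from -0.38 to -0.18 without anti-B7-H3 replicate 3, and Tgfbr1 from 0.30 to 0.14 without anti-B7-H3 replicate 2. For anti-PD1 against IgG, Tgfb3 went from 0.60 to 0.95 without IgG replicate 2. Leaving out 1 library at a time called 0 to 1 members for anti-PD1 against IgG and 0 in the other comparisons. The 1 member was Tgfb3, without IgG replicate 2, where 438 genes passed. The log2 fold changes that crossed 0 ranged, for anti-B7-H3 against IgG, from -0.23 to 0.037 for Tgfb1, -0.11 to 0.41 for Tgfb3 and -0.034 to 0.32 for Tgfbr2; for anti-PD1 against IgG from -0.18 to 0.16 for Tgfbr2; and between the antibodies from -0.30 to 0.11 for Ltbp1 and -0.33 to 0.14 for Tgfbr3.

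Counts over all genes moved with the settings, in the order anti-B7-H3 against IgG, anti-PD1 against IgG, between the antibodies and over the 3 groups. TMM gave 79, 53, 0 and 158. DESeq2 gave 502, 822, 24 and 778, limma-voom 77, 82, 0 and 76, the satellite genes left out 479, 303, 0 and 543, no filter 1040, 714, 4 and 1652, at least 10 reads in every library 3, 23, 0 and 82, library totals 12536, 12341, 23 and 12406, the receptor covariate 0, 6, 0 and 0, background subtracted 12, 9, 0 and 58, and the libraries without the 2 highest for muscle 13, 12, 0 and 15. Only the libraries compared gave 20, 89 and 0. Leaving out 1 library gave 8 to 454, 9 to 438, 0 to 0 and 11 to 433.

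No pairing by replicate number was seen, in a check on groups of 3 libraries that could miss one. Libraries with the same number had correlations of deviations of -0.322 to 0.18, and those with different numbers -0.434 to 0.522. Of the 9 libraries, 1 correlated best with its own number. With the number as a block, 0 members passed and 103, 134, 0 and 155 genes did; Smad7 in anti-PD1 against IgG was -0.74 (edgeR adjusted p = 0.202). Depth is thinnest in IgG replicate 3, with 16 reads for Tgfb2 and 27 each for Tgfb1 and Smad7.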
